A study of Mus musculus with 6 samples.

Results

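Very long genes, many of them at common fragile sites, were examined in kidney tissue of 3 cisplatin-treated and 3 control mouse samples by RNA sequencing. The set was a list of 43 gene symbols, of which 38 had at least 10 reads in at least 3 of the 6 libraries, out of 19087 genes in the table and 14392 genes tested. All 6 samples were wild type (WT). One group had received intraperitoneal cisplatin to induce acute kidney injury, and the other samples were labelled as controls. Cisplatin is a platinum compound used against tumours that forms adducts on DNA and is toxic to tubule cells. The sources used here give no dose, time after injection, age, sex or diet. The series asked which molecules sensitize mice on a high-fat diet to acute kidney injury.

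Common fragile sites are chromosome regions that break or form gaps when DNA replication is slowed, and many of them lie inside very long genes. RNA polymerase II has to travel along the whole gene before 1 mature transcript is made, so long genes take a long time to transcribe, and replication and transcription can meet inside them. Platinum cross-links on the template strand block RNA polymerase II. In kidney tubule cells, Fhit, Wwox and Immp2l are not segment markers but broadly expressed genes of nucleotide metabolism, oxidoreduction and mitochondrial protein processing.

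The label of the set held for length. The 38 genes spanned 313 to 2390 kb in the RefSeq annotation of GRCm38.p6, with a median of 892 kb, and 16 of them spanned at least 1000 kb. They lay on 17 chromosomes and had 7 to 79 exons in the longest coding transcript. In that transcript, exons covered 0.0679% of its genomic extent in Fhit, the lowest share, and 3.66% in Zbtb20, the highest, with a median of 0.752%. That extent can be shorter than the gene span. Whether a gene lies at a fragile site was not measured in these data.

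The promoter sequences of 3 members are printed. Fhit and Immp2l had the deepest loss of reads among members with at least 4 CPM in every control library. Exoc4 had the largest rise. Fhit and Immp2l entered the set through the controls alone, so their loss is tied to the read rule. Among members with at least 10 reads in every library, Wwox fell most, with a log2 fold change of -3.39. Each sequence ends at the last base before the annotated gene and is written 5′ to 3′ on the strand of the gene, from RefSeq, build GRCm38.p6. Capitals mark GC boxes (GGGCGG, or CCGCCC on the other strand), known as binding letters of Sp1-type factors. Fhit lies on the minus strand, and its sequence is chr14:11162062-11162285. Immp2l lies on the plus strand, and its sequence is chr12:41023840-41024060. Exoc4 lies on the plus strand, and its sequence is chr6:33248878-33249089.
Fhit: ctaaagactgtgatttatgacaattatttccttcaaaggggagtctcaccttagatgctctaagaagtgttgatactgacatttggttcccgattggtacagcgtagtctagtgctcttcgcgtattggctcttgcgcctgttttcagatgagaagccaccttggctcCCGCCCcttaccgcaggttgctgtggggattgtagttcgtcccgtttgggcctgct
Immp2l: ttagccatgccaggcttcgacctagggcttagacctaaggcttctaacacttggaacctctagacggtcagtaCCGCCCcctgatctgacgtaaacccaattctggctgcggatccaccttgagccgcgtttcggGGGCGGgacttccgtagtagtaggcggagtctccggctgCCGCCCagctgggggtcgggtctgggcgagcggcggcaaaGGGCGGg
Exoc4: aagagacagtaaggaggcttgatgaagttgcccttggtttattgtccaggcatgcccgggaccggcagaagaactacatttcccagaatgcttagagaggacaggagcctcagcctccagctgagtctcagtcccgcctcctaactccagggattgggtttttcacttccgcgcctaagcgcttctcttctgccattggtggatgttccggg

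Of the 38 genes, 29 had an entry in the RefSeq promoter table, and the 250 bases before the start listed there were searched on both strands. That start is not always the edge of the annotated gene: 2 of the 29 windows lay wholly before the gene, 16 ran partly into it and 11, that of Dmd among them, lay wholly inside it. The GC box occurred in 15 of the 29 windows (51.7%), against 33% of the windows of all 27025 genes in that table. The letters TATAAA, or TTTATA on the other strand, occurred in 1 of 29 (3.45%), that of Dmd, against 13% of all genes. The letters CCAAT, or ATTGG, occurred in 9 of 29 (31%), against 34.5% of all genes. The member windows held a median of 16 CpG dinucleotides, against 6 over all genes. The 29 genes had met the read rule, while the 27025 genes were not limited to genes with reads in these data. The sets were thus filtered differently, and the part of that filter in these contrasts was not tested. In these windows Immp2l had 5 GC boxes, Fhit had 1 and Exoc4 had none. The printed Immp2l sequence shows 4 of its 5, since it stops at the edge of the gene and the window runs on.

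Library totals ranged from 17776018 to 18523666 estimated reads in cisplatin and from 16725665 to 17351755 in controls. The 4 tubule injury markers summed to 834 to 2410 CPM in cisplatin libraries and to 20.3 to 29.3 CPM in control libraries, where CPM is the read count scaled to library size with TMM factors. Markers of proximal tubule (5 of 6 lower), thick limb (2 of 3 lower) and distal tubule (3 of 3 lower) were present and summed to less in every cisplatin library than in every control library. Proximal tubule markers summed to 2499 to 5378 CPM in cisplatin and 11980 to 12570 CPM in controls, thick limb markers to 1338 to 2913 CPM in cisplatin and 4974 to 6314 CPM in controls, and distal tubule markers to 303 to 512 CPM in cisplatin and 1150 to 1292 CPM in controls. The labels do not tie the samples to separate animals. A p-value here therefore reflects only how far the samples lay apart, part of which may be technical.

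Cisplatin kidneys held fewer reads of most of these genes. The 43 listed genes took 0.0798%, 0.0742% and 0.0777% of all reads in the cisplatin libraries, against 0.111%, 0.108% and 0.114% in the control libraries. Of the 38 genes, 33 had at least 10 reads in every library, and among these 25 were lower in cisplatin, 3 were higher and 5 did not pass the test at an adjusted p under 0.05 (edgeR's quasi-likelihood test with Benjamini-Hochberg adjustment over all genes tested). Over all genes tested, 45.4% were called in either direction, 22.2% lower and 23.1% higher. The median log2 fold change, cisplatin over control, was -0.69 over the 33 genes and 0.01 over all genes tested. The other 5 genes, Fhit, Immp2l, Ctnna2, Grid1 and Lsamp, reached 10 reads in the 3 control libraries alone, so they entered the set only by being higher in controls, and they are described without a test. In bulk tissue, fewer cells of a type and less RNA per cell cannot be told apart.

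Counted by group overlap, 26 of these 33 genes were lower in every cisplatin library than in every control library, 3 were higher in every one and 4 overlapped. Over all genes tested, 28.4% were lower without overlap and 29.2% were higher without overlap. At a fold change of at least 2 with a call, 10 of the 33 were lower, against 5.36% of all genes tested. None of the 33 reached such a rise, which 7.43% of all genes tested did, and the highest of them, Exoc4, lay at 0.97 on the log2 scale. On the log2 scale relative to the control mean, the median over the 33 genes was -0.72, -0.61 and -0.61 in the cisplatin libraries, against -0.01, -0.06 and 0.06 in the control libraries. The medians of the 3 cisplatin libraries thus lay close together, while single genes could spread more, such as Macrod2 at 26.6 to 50.6 CPM. The median of the 4 injury markers on the same scale was 7.09, 7.27 and 5.98 in the same 3 libraries. It rests on fewer genes and a much larger shift, so the spreads of these medians are not directly comparable.

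**Figure D1:**
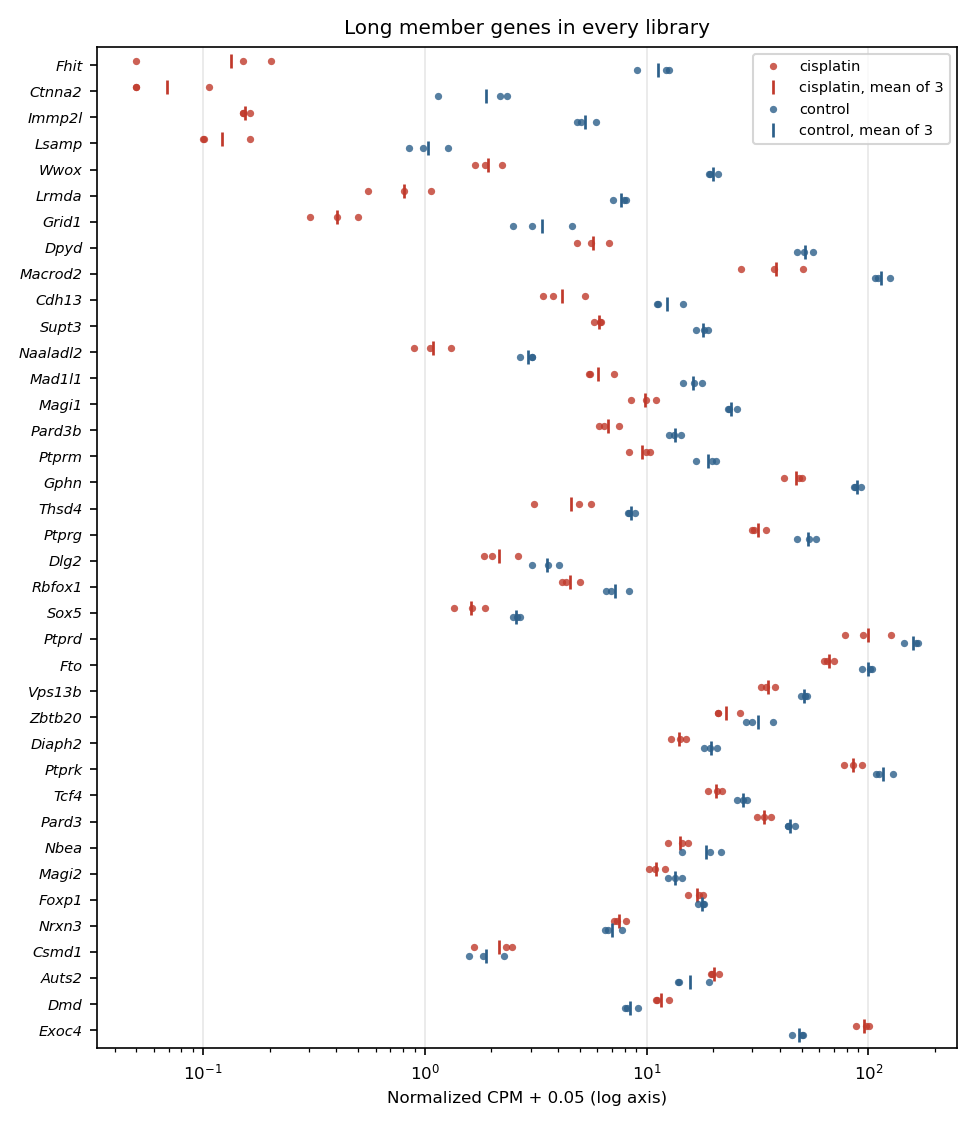
Normalized CPM + 0.05 on a log axis for each of the 38 genes in every library, ordered by fold change, with cisplatin libraries in red, control libraries in blue and vertical ticks at the mean of 3. Fhit lies at 0 to 0.152 CPM in cisplatin and 8.97 to 12.6 CPM in controls at the top, and Exoc4 lies at 88.2 to 101 CPM in cisplatin and 45.1 to 50.5 CPM in controls at the bottom.

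The enzyme and genome maintenance genes that could be compared were all lower. Of the 10 genes in this role group, the 8 with at least 10 reads in every library all fell. Fhit and Immp2l entered the set through the controls alone, so their lack of overlap follows from the read rule. Fhit, which encodes a diadenosine triphosphate hydrolase and spans 1612 kb, had 2, 3 and 0 reads in the cisplatin libraries, against 147, 199 and 203 reads in the control libraries. Its pooled reads in cisplatin were 0.776% of those in controls after normalization, with a 95% exact (Clopper-Pearson) counting interval of 0.251% to 1.82%. The fitted log2 fold change was -7.54 without cisplatin replicate 2, against -6.90 with every library. Immp2l, which encodes a subunit of the inner mitochondrial membrane peptidase, had 2 reads in each cisplatin library, against 79, 96 and 81 reads in the control libraries. Both genes were thus close to the limit of detection in treated kidneys at this depth while well counted in controls.

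Wwox, which encodes a WW domain oxidoreductase and lies at the fragile site FRA16D in humans, had 2.17, 1.82 and 1.64 CPM in cisplatin, against 21.1, 19.3 and 19.1 CPM in controls. It fell by 3.39 on the log2 scale (SE 0.14; edgeR adjusted p = 1.58e-06), 10.5-fold. Dpyd, which encodes dihydropyrimidine dehydrogenase, the first enzyme of pyrimidine breakdown, had 5.55, 4.81 and 6.71 CPM in cisplatin, against 56.1, 47.5 and 51.0 CPM in controls. It fell by 3.18 (SE 0.13; edgeR adjusted p = 1.58e-06). For both genes the highest cisplatin library stayed far below the lowest control library, and the spread within each group was small beside that gap.

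Another 4 genes of this role group fell by between 1.43 and 1.58 on the log2 scale. Macrod2, an ADP-ribose hydrolase gene of 1998 kb, had 37.6, 26.6 and 50.6 CPM in cisplatin, against 110.5, 125.3 and 107.1 CPM in controls (log2 fold change -1.58, SE 0.22; edgeR adjusted p = 0.00134). Supt3, which encodes a subunit of the SAGA transcriptional coactivator, had 5.75, 6.18 and 6.15 CPM in cisplatin, against 18.9, 18.2 and 16.7 CPM in controls (log2 fold change -1.57, SE 0.11; edgeR adjusted p = 2.33e-05). The cisplatin libraries agreed closely for Supt3 and spread more widely for Macrod2. Mad1l1, a spindle checkpoint gene, had 5.45, 7.09 and 5.53 CPM in cisplatin and 14.5, 17.8 and 16.3 CPM in controls, and fell by 1.43 (SE 0.14; edgeR adjusted p = 1.70e-04). Naaladl2, a peptidase-like gene counted at 15 to 25 reads in cisplatin and 43 to 49 reads in controls, fell by 1.45 (SE 0.24; edgeR adjusted p = 0.00163). The groups did not overlap for any of these 4 genes.

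Gphn and Fto, the best counted genes of this role group besides Macrod2, fell by less. Gphn encodes gephyrin, which completes the molybdenum cofactor and anchors inhibitory receptors at synapses, and it had 50.3, 41.8 and 48.9 CPM in cisplatin, against 87.3, 86.6 and 92.6 CPM in controls. Its log2 fold change was -0.92 (SE 0.09; edgeR adjusted p = 1.21e-04). Fto, which encodes an RNA demethylase, had 63.1, 65.3 and 70.2 CPM in cisplatin and 94.1, 103 and 101 CPM in controls, and its log2 fold change was -0.59 (SE 0.08; edgeR adjusted p = 5.16e-04). Fto spans 355 kb, among the shortest of the set.

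**Figure D2:**
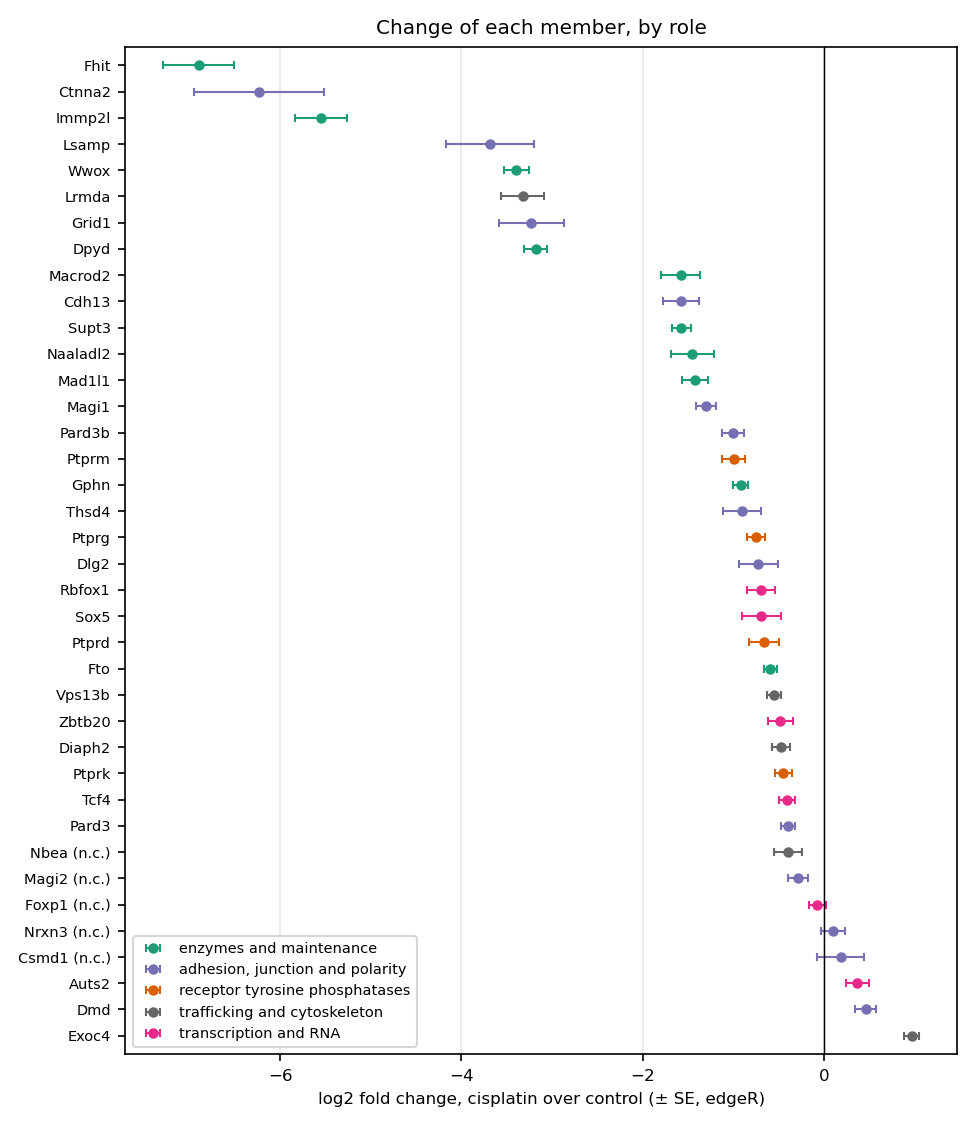
Log2 fold change, cisplatin over control, with its standard error from edgeR, for each of the 38 genes, coloured by role, where n.c. marks genes that did not pass the test and the 5 genes that reached 10 reads in controls alone are plotted as values. Enzyme and maintenance genes lie to the left, between -6.90 and -0.59, and Auts2, Dmd and Exoc4 lie to the right of 0.

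Adhesion, junction and polarity genes were more mixed. Of 13 such genes, 10 had at least 10 reads in every library, and 6 of these fell, 1 rose and 3 did not pass the test. Ctnna2, an alpha-catenin gene that links cadherins to actin, had 0, 0 and 1 reads in cisplatin, against 35, 18 and 36.9 estimated reads in controls. Its pooled ratio was 0.00947, with a 95% exact counting interval of 0.000237 to 0.0541. Lsamp, a cell adhesion gene of the immunoglobulin superfamily, had 1, 1 and 2 reads in cisplatin, against 20, 13 and 15 reads in controls. Grid1, a delta glutamate receptor gene, had 7.06, 5 and 8 estimated reads in cisplatin, against 75.1, 40.1 and 48 in controls. These 3 genes, all of low abundance, entered the set through the controls alone, so their lack of overlap follows from the read rule.

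Cdh13, which encodes T-cadherin, a cadherin anchored to the membrane by a lipid, had 3.38, 5.22 and 3.72 CPM in cisplatin, against 11.1, 11.3 and 14.5 CPM in controls (log2 fold change -1.58, SE 0.20; edgeR adjusted p = 4.54e-04). The paralogous junction scaffolds Magi1 and Magi2 differed in whether they passed the test, and the difference between them was not itself tested. Magi1 had 8.48, 10.9 and 9.87 CPM in cisplatin and 23.4, 23.2 and 25.5 CPM in controls, and fell by 1.299 (SE 0.11; edgeR adjusted p = 7.41e-05). Magi2, a podocyte and junction scaffold, had 10.9, 10.2 and 12.0 CPM in cisplatin and 14.4, 12.4 and 13.4 CPM in controls, with -0.28 (SE 0.11) on the log2 scale, which did not pass the test (edgeR adjusted p = 0.0688) but did without cisplatin replicate 3 (adjusted p = 0.0352). Podocyte markers summed to 300 to 366 CPM in cisplatin and 235 to 270 CPM in controls, with 3 of 4 higher, and their part in the Magi2 value was not tested.

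The polarity scaffolds Pard3 and Pard3b, which organize the apical membrane domain of epithelial cells, were both lower. Pard3b had 6.41, 6.08 and 7.5 CPM in cisplatin, against 13.2, 12.6 and 14.2 CPM in controls (log2 fold change -1.005, SE 0.12; edgeR adjusted p = 4.52e-04). Pard3 had 33.8, 31.4 and 36.4 CPM in cisplatin, against 46.7, 43.5 and 43.4 CPM in controls (log2 fold change -0.40, SE 0.08; edgeR adjusted p = 0.00451). Thsd4, which encodes a microfibril-associated protein, fell by 0.90 (SE 0.21; edgeR adjusted p = 0.00859), and its cisplatin replicate 3, at 3.04 CPM, lay below 4.89 and 5.57 CPM in the other cisplatin libraries. Dlg2, a membrane-associated guanylate kinase gene, had 1.97, 2.58 and 1.80 CPM in cisplatin and 2.99, 3.55 and 3.98 CPM in controls (log2 fold change -0.72; edgeR adjusted p = 0.0262). The Dlg2 call was lost without cisplatin replicate 1 or 3 or without control replicate 2 or 3 (adjusted p = 0.0550 to 0.0917).

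Dmd, which encodes dystrophin and is the longest gene of the set at 2390 kb, was the only gene of its role group that rose. It had 12.5, 11.0 and 11.1 CPM in cisplatin, against 7.93, 8.08 and 9.13 CPM in controls, and rose by 0.46 (SE 0.12; edgeR adjusted p = 0.0130), a call lost without cisplatin replicate 1 (adjusted p = 0.0605). Skeletal muscle markers summed to 0.203 to 0.395 CPM in cisplatin and 0.183 to 0.311 CPM in controls, and smooth muscle markers to 92.7 to 102 CPM in cisplatin and 102 to 131 CPM in controls. Nrxn3, a neurexin gene, and Csmd1, which encodes a complement-regulating membrane protein, had overlapping groups and log2 fold changes of 0.11 and 0.19 (edgeR adjusted p = 0.547 and 0.581). Several of these adhesion genes are best known from neurons, and 8 neuron and glia markers summed to 8.97 to 10.2 CPM in cisplatin and 12.6 to 16.2 CPM in controls, with 1 of the 2 tested lower and Snap25 without a read in any control library. The part of such cells in these results was not tested.

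The 4 receptor-type protein tyrosine phosphatases, which carry cell-adhesion ectodomains and remove phosphate from tyrosine inside the cell, all fell, by less than 2-fold. Ptprm had 10.3, 9.88 and 8.29 CPM in cisplatin, against 19.6, 16.7 and 20.6 CPM in controls (log2 fold change -0.99, SE 0.13; edgeR adjusted p = 4.95e-04). Ptprg had 30.6, 29.99 and 34.6 CPM in cisplatin, against 58.1, 47.8 and 53.7 CPM in controls (log2 fold change -0.75, SE 0.10; edgeR adjusted p = 5.33e-04). Ptprg lies near Fhit on chromosome 14, where Fhit was almost without reads in cisplatin and Ptprg was still counted at 592 to 614 reads. Ptprd had 127, 78.8 and 94.5 CPM in cisplatin, against 144, 164 and 167 CPM in controls (log2 fold change -0.66; edgeR adjusted p = 0.0130). Ptprk had 84.9, 77.4 and 93.2 CPM in cisplatin, against 128, 108 and 111 CPM in controls (log2 fold change -0.45; edgeR adjusted p = 0.00678). Ptprd varied most between the cisplatin libraries.

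Among the 5 trafficking and cytoskeleton genes, 3 fell, 1 rose and 1 did not pass the test. Exoc4, which encodes a subunit of the exocyst, the complex that tethers secretory vesicles to the plasma membrane, was the gene with the largest rise. It had 88.2, 97.1 and 101 CPM in cisplatin, against 50.5, 45.1 and 50.2 CPM in controls, and rose by 0.97 (SE 0.08; edgeR adjusted p = 6.91e-05). At 725 kb, Exoc4 is close in length to Diaph2 (716 kb) and Dpyd (871 kb), which were both lower. Lrmda, linked to melanocyte differentiation in humans, had 0.505, 0.760 and 1.02 CPM in cisplatin, against 7.996, 6.98 and 7.83 CPM in controls, and fell by 3.32 (SE 0.24; edgeR adjusted p = 3.29e-05). Every cisplatin library of Lrmda was far below every control library.

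Vps13b, a lipid transfer protein gene of the Golgi, fell by 0.55 (SE 0.08; edgeR adjusted p = 9.43e-04), and Diaph2, a formin gene of actin assembly, fell by 0.48 (SE 0.10; edgeR adjusted p = 0.00546). An exon of Vps13b overlaps Cox6c on the opposite strand, and since the sources used here do not state strandedness, reads of that stretch cannot be told apart. Nbea, which encodes neurobeachin, a protein of membrane trafficking, had 12.4, 14.4 and 15.3 CPM in cisplatin and 21.7, 14.4 and 19.2 CPM in controls. Its log2 fold change of -0.39 did not pass the test (edgeR adjusted p = 0.0715) but did without control replicate 2, the lowest control (adjusted p = 0.0159). An exon of Nbea likewise overlaps Mab21l1 on the opposite strand, a gene with 0, 2 and 3 reads in cisplatin and 0 in each control library.

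The transcription and RNA regulators had a median log2 fold change of -0.44. Of 6 such genes 4 fell, 1 rose and 1 did not pass the test, and none changed by 2-fold. Rbfox1, a splicing regulator, had 4.29, 4.10 and 4.96 CPM in cisplatin, against 6.84, 6.49 and 8.26 CPM in controls (log2 fold change -0.69; edgeR adjusted p = 0.00785). Tcf4, a basic helix-loop-helix factor, fell by 0.41 (edgeR adjusted p = 0.00593). Zbtb20, a zinc finger repressor, fell by 0.48 (edgeR adjusted p = 0.0191), a call lost without cisplatin replicate 1 or control replicate 3 (adjusted p = 0.0765 and 0.0681). Sox5, an SRY-box factor counted at 26.3 to 36.1 reads in cisplatin and 39.6 to 43.0 reads in controls, fell by 0.69 (edgeR adjusted p = 0.0306), a call lost without cisplatin replicate 1 or any of the control replicates (adjusted p = 0.0640 to 0.107).

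Auts2, a chromatin-associated gene, had 21.2, 19.6 and 19.7 CPM in cisplatin, against 13.8, 14.0 and 19 CPM in controls. It rose by 0.37 (SE 0.13; edgeR adjusted p = 0.0476), but control replicate 3 lay close to the cisplatin libraries. The call was lost without any of the cisplatin replicates and without control replicate 1 or 2 (adjusted p = 0.0579 to 0.155). Foxp1, a forkhead factor, had 15.3, 17.1 and 18.0 CPM in cisplatin, against 16.97, 18.2 and 17.9 CPM in controls, with overlapping groups (log2 fold change -0.07; edgeR adjusted p = 0.553).

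Set against each other per length, as FPKM, the genes changed places. Fto was highest in controls, at 19.7 ± 0.4 FPKM in cisplatin and 27.1 ± 1.2 FPKM in controls (SD, n = 3 each). Exoc4 was highest in cisplatin, at 21.5 ± 1.1 FPKM in cisplatin and 9.87 ± 0.72 FPKM in controls. Macrod2 had 8.57 ± 2.4 FPKM in cisplatin and 23.6 ± 1.7 FPKM in controls, and Gphn had 12.7 ± 1.0 FPKM in cisplatin and 22.7 ± 1.1 FPKM in controls, so that these neighbours in the control order differed by less than their spread. Fhit had 0.0967 ± 0.095 FPKM in cisplatin and 12.2 ± 2.5 FPKM in controls, where it stood beside Supt3 (4.79 ± 0.40 FPKM in cisplatin and 12.8 ± 0.5 FPKM in controls) and Dpyd (1.36 ± 0.18 FPKM in cisplatin and 11.2 ± 1.0 FPKM in controls). In controls Fhit differed from either by less than its spread, while in cisplatin the order was Supt3, Dpyd and Fhit, each apart by more than the spread.

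The 5 listed genes under the read threshold were too sparse to compare. Just inside the threshold, Lsamp had 13 to 20 reads in the controls, and just outside it, Rad51b, a gene of homologous recombination, had 1, 3 and 3 reads in cisplatin and 7, 13 and 7 reads in controls. The pooled ratio of Rad51b was 0.221, with a 95% exact counting interval of 0.0812 to 0.520. Ptprt, Ctnna3 and Lrp1b had pooled ratios of 1.36, 0.568 and 0.852, each with an interval that included 1, and Pcdh15 had 1 read in all, in a cisplatin library. Counting intervals cover counting error only.

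Genes chosen by length alone were lower as well. Of 343 other genes tested that span at least 300 kb, 163 (47.5%) were lower, 26 (7.58%) were higher and 154 did not pass the test in edgeR, with a median log2 fold change of -0.45. Unlike the 33 listed genes, these were not required to have at least 10 reads in every library. Lower by at least 2-fold were 84 (24.5%), and 10 were higher by as much. Their median was -0.47, -0.41 and -0.43 in the cisplatin libraries, against 0.03, -0.05 and 0.04 in the control libraries. Shorter genes did not show this balance: of genes under 10 kb 21.8% were lower and 23.8% higher, of genes of 10 to 30 kb 20.4% and 24.3%, of genes of 30 to 100 kb 20% and 23.4%, and of genes of 100 to 300 kb 28.1% and 20.7%.

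Above 300 kb there was no further step with length. Without the listed genes, 48.8% of 242 genes of 300 to 500 kb, 45.6% of 79 genes of 500 to 1000 kb and 40.9% of 22 genes of at least 1000 kb were lower, a subdivision chosen after the values were seen. Across the 14357 genes with a span and a test, Spearman's rho between span and log2 fold change was -0.08, a description across genes, which share the same 6 libraries. Over the 33 listed genes with at least 10 reads in every library it was 0.07.

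**Figure D3:**
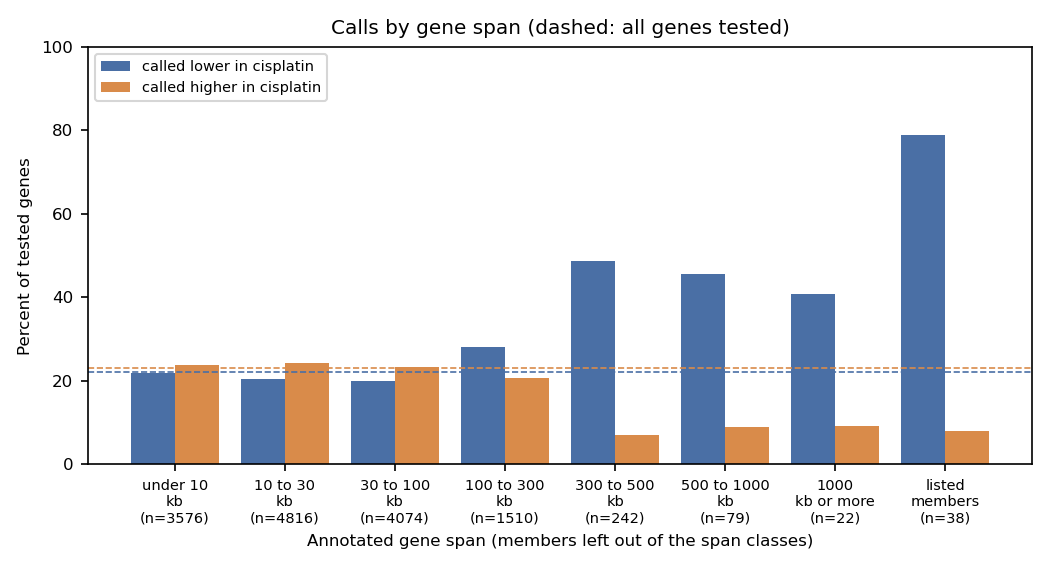
Percent of tested genes lower (left bars) and higher (right bars) in cisplatin at an edgeR adjusted p under 0.05, by annotated gene span in kb, with the listed genes left out of the classes from 300 kb. The share lower stands at 20% to 28.1% below 300 kb and at 40.9% to 48.8% above it, and the share higher falls short of 10% above 300 kb.

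The largest falls among the other genes of at least 300 kb included those of Trdn, Cdh4 and Col19a1. With 2, 8 and 12 pooled reads in cisplatin, they passed the count filter through the control libraries alone. Cdh4, a cadherin gene, had 0.101 to 0.226 CPM in cisplatin and 3.05 to 5.03 CPM in controls, and Col19a1, a collagen gene, 0.151 to 0.338 CPM in cisplatin and 0.919 to 4.21 CPM in controls. Trdn, which encodes triadin of striated muscle, had 2 reads in cisplatin and 72 in controls, a pooled ratio of 0.0237 with a 95% exact counting interval of 0.00281 to 0.0887.

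The 5 largest rises among them were those of Samd5, Nrg1, Dscaml1, Galnt17 and Creb5. Nrg1, the gene of the ERBB ligand neuregulin 1, spans 1084 kb and had 87.5, 81.8 and 83.8 CPM in cisplatin, against 12.9, 13.7 and 10.4 CPM in controls (log2 fold change 2.77, SE 0.10; edgeR adjusted p = 1.13e-06). Its groups did not overlap, so a gene of this span was higher in every cisplatin library than in every control library. Samd5 had 2.48 to 3.75 CPM in cisplatin and 0.122 to 0.559 CPM in controls, and its fitted value was 4.20 on the log2 scale without control replicate 3, against 3.32 with every library. Dscaml1 and Creb5 rose by 2.64 and 1.62 on the log2 scale (edgeR adjusted p = 5.25e-05 and 0.00374), and the fitted value of Galnt17 was 2.01. With 14 and 22 pooled reads in controls, Samd5 and Galnt17 passed the count filter through the cisplatin libraries alone, so their rises are values without a test.

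The length of the spliced transcript was set beside the change in the 33 genes with at least 10 reads in every library, leaving out the 5 that entered through the controls alone. Spearman's rho with the log2 fold change was 0.46 for spliced length, 0.42 for exon number, -0.22 for the largest intron and 0.07 for span. These are descriptions over genes that share libraries and annotation, with no test. Among other genes of at least 300 kb, rho was 0.09, -0.09 and 0.07 over the 339 with exon annotation and, for span, -0.01 over 343. These other genes were not limited to those with at least 10 reads in every library, so the sets were filtered differently. Split at a spliced length of 5 kb, a value chosen after the data were seen, 7 of 13 listed genes under it and 3 of 20 at or over it were lower by at least 2-fold, with medians of -1.43 and -0.48. Among the other long genes, 43 of 141 under 5 kb and 40 of 198 at or over it were lower by as much, with medians of -0.56 and -0.37.

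**Figure D4:**
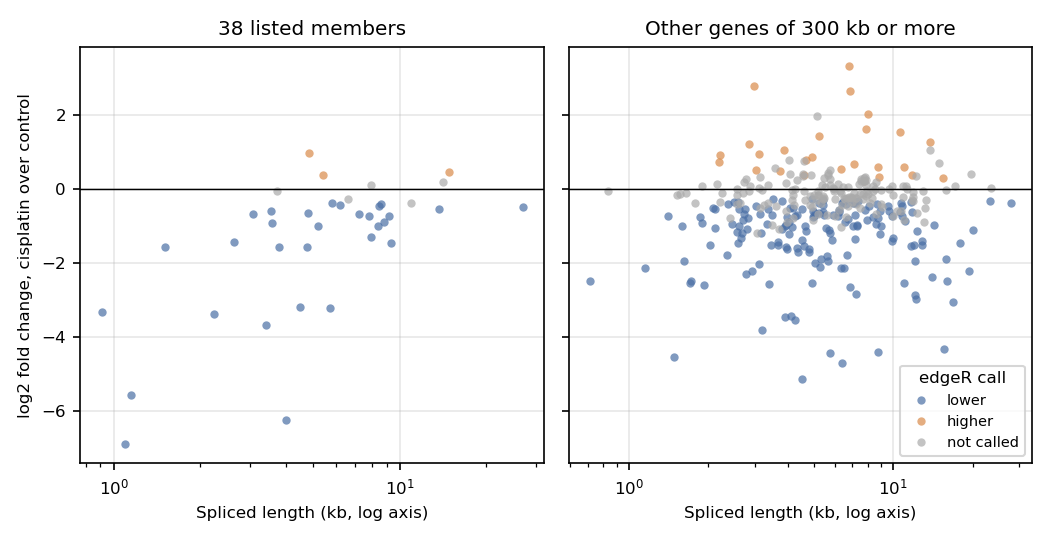
Log2 fold change, cisplatin over control, against the length of the longest coding transcript in kb (log axis) for the 38 listed genes, the 5 that reached 10 reads in controls alone included, and the other genes of at least 300 kb. Wwox, with 2.24 kb of exons, lies at -3.39, and Zbtb20, with 26.9 kb, lies at -0.48.

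Some of the listed genes hold little exon between very long introns. Fhit holds 1.09 kb of exon in 1612 kb of gene, with a largest intron of 551 kb, and Lrmda holds 0.908 kb of exon in 1037 kb of gene. Immp2l has 1.15 kb of exon in 932 kb. At the other end, Dmd has 79 exons and 14.9 kb of exon, Csmd1 14.2 kb and Vps13b 13.8 kb. Annotated coding transcripts much shorter than the gene occur among genes that fell, such as Wwox, Macrod2 and Ptprg, at 34.8 kb, 24.9 kb and 48.6 kb. They also occur among genes that rose, with Auts2 at 0.309 kb and Dmd at 154 kb. Which transcripts the reads came from is not given in the sources used here.

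Genes next to the set were closer to the background. The nearest tested gene on each side of each of the 38, passing over listed genes, gave 74 distinct genes at a median distance of 347 kb, of which 24 (32.4%) were lower and 10 (13.5%) were higher in edgeR, with a median log2 fold change of -0.13. The largest falls were those of Bcat1 beside Sox5, Cfap20dc beside Fhit and Kcnma1 beside Lrmda, by 3.72, 3.28 and 2.86 on the log2 scale. Bcat1 encodes a branched-chain aminotransferase. The edgeR adjusted p was 4.75e-04 for Bcat1 and 4.49e-04 for Kcnma1. With 16 pooled reads in cisplatin, Cfap20dc passed the count filter through the control libraries alone, so its fall is a value without a test. Cfap20dc fell by 4.05 without cisplatin replicate 2. The largest rises were those of Galnt17 beside Auts2, Raph1 beside Pard3b and Myom2 beside Csmd1, with log2 fold changes of 2.01, 1.09 and 0.70. The edgeR adjusted p was 0.00177 for Raph1 and 0.00270 for Myom2. Galnt17 passed the count filter through the cisplatin libraries alone, so its rise is a value without a test.

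Coding genes that lie within introns of the set gave a closer look at the same regions. Lrrn3, which lies inside Immp2l, had 5, 14 and 6 reads in cisplatin and 10, 6 and 14 reads in controls, with overlapping groups (log2 fold change -0.49; edgeR adjusted p = 0.453), where Immp2l had 2 reads in each cisplatin library. Lrrtm1, inside Ctnna2, had 6, 5 and 2 reads in cisplatin and 3, 9.02 and 14 estimated reads in controls and was not tested. Flrt3, inside Macrod2, had 54, 50 and 20 reads in cisplatin and 62.0, 60 and 80 reads in controls (log2 fold change -0.95; edgeR adjusted p = 0.0356), a call lost without any of the control replicates (adjusted p = 0.0666 to 0.120).

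Reads over FPKM gave, for each gene, the transcript length by which the authors divided its reads to reach FPKM. How they set that length is not stated, and it can move where the mix of transcripts moves. Over the 33 genes with at least 10 reads in every library the median change of that length was -0.0007 on the log2 scale, against -0.003 over 13448 genes. It moved by more than 0.1 in either direction in 8 of the 33, against 4.39% of all genes. The deposited FPKM are rounded, so this length is imprecise where FPKM is low. An example among the 8 is Csmd1, at 0.09 to 0.11 FPKM in cisplatin and 0.04 to 0.10 FPKM in controls. In Rbfox1 the length was 2.76-fold greater in cisplatin than in controls, and its level per length was 0.17, 0.15 and 0.14 FPKM in cisplatin, against 0.66, 0.54 and 0.67 FPKM in controls. Its fall was therefore deeper per length than in reads. Magi2, Lrmda and Mad1l1 also had greater lengths in every cisplatin library, by 0.35, 0.28 and 0.17 on the log2 scale. The annotation used here gives Mad1l1 1 coding transcript. The other 4 genes past 0.1 had overlapping groups. These lengths are values with no test.

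**Figure D5:**
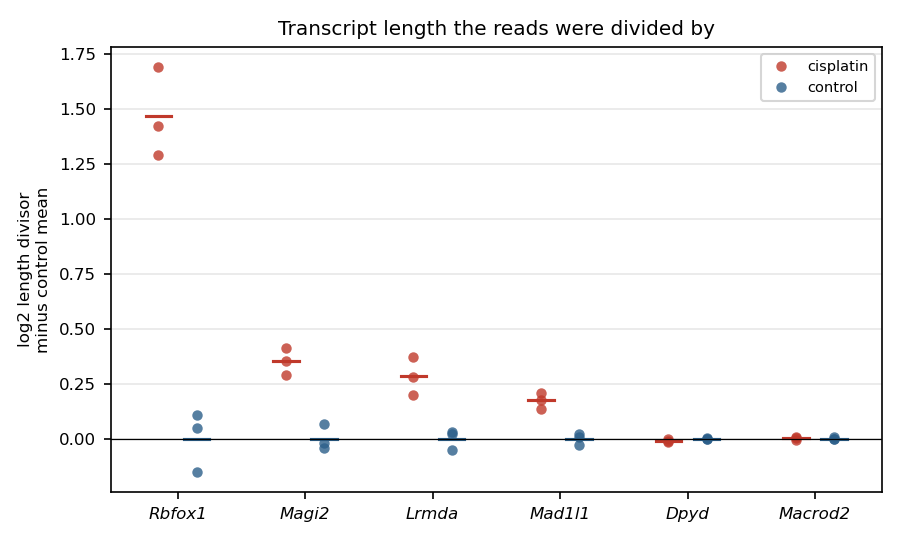
Change of the length divisor (reads over FPKM, log2, relative to the control mean) in each library for Mad1l1, Lrmda, Magi2, Rbfox1, Dpyd and Macrod2. Mad1l1, Lrmda, Magi2 and Rbfox1 were picked for their large rises in every cisplatin library. The panel therefore does not represent all 33 genes with at least 10 reads in every library. The mean change was 1.47 in Rbfox1 and 0.35 in Magi2, and the median over all 33 genes was -0.0007.

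Genes of transcription elongation and DNA topoisomerases, which carry RNA polymerase II through long genes, were examined beside the set. Of 53 such genes tested, 18 (34.0%) were higher and 2 (3.77%) were lower in edgeR, against 23.1% and 22.2% of all genes tested, with a median log2 fold change of 0.16. With library size only 27 were higher and 1 was lower. Polr2a, the largest subunit of RNA polymerase II, had 167, 164 and 163 CPM in cisplatin, against 99.7, 100.5 and 108 CPM in controls (log2 fold change 0.68; edgeR adjusted p = 1.91e-04). The elongation factor genes Ell, Leo1 and Ell2 rose by 0.88, 0.66 and 0.56 (edgeR adjusted p = 4.99e-04, 0.00172 and 6.00e-04). Ell3, an elongation factor gene, and Ccnh, the cyclin of the CDK7 complex, fell by 1.04 and 0.27 (edgeR adjusted p = 0.0154 and 0.0425). The Ell3 call was lost without control replicate 2 (adjusted p = 0.0509), and the Ccnh call without each replicate but cisplatin replicate 3 (adjusted p = 0.0636 to 0.127).

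The remaining marker lists were measured for the other cells a kidney sample can hold. Endothelial markers, 4 of 4 lower, summed to 188 to 225 CPM in cisplatin and 324 to 333 CPM in controls, and collecting duct markers, 2 of 6 lower and 1 higher, to 329 to 420 CPM in cisplatin and 429 to 448 CPM in controls. Fibroblast and mural markers, 2 of 4 higher, summed to 266 to 384 CPM in cisplatin and 222 to 258 CPM in controls, and macrophage markers, 2 of 4 higher and 1 lower, to 165 to 191 CPM in cisplatin and 123 to 139 CPM in controls. T cell markers summed to 2.02 to 3.38 CPM in cisplatin and 3.31 to 7.14 CPM in controls, and adrenal markers to 3.72 to 4.002 CPM in cisplatin and 3.29 to 5.51 CPM in controls, with Cyp11b1 without a read. Most markers of proximal tubule, thick limb, distal tubule and endothelium thus moved in the same direction as most of the long genes, while collecting duct markers were mixed. The part of these cells in the values of the long genes was not tested.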

How the data were processed

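Messenger RNA was measured in kidney tissue of 3 cisplatin and 3 control samples. Reads were aligned with HISAT to GRCm38.p6, per the submitters' processing notes. The sources used here do not name the counting program, annotation or strandedness. Per the file headers, the deposited table held estimated counts, FPKM and TPM of each library. Its estimated counts, as deposited, carry no scaling, and 66.2% to 67.7% of them were whole. The FPKM that the authors deposited are relative to transcript length and library size, and the TPM they deposited were not used here. Control columns bear only initials with a number and were taken as the wild-type controls.

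Counts were rounded. Genes were filtered with filterByExpr (minimum count 10), leaving 14392, scaled with TMM factors and compared with edgeR 4.0.16 (R 4.3.3; robust quasi-likelihood F test, two-sided), with Benjamini-Hochberg adjustment over all genes tested. Calls were made below an adjusted p of 0.05. CPM values are TMM-normalized. The test was first tested on simulated data with known changes. It recovered 46.3% of 1.5-fold, 79.1% of 2-fold and 97.0% of 4-fold changes, with 15 false calls. A small change could thus fail to pass. Alternatives were other scalings, no filter, DESeq2 1.42.0, limma 3.58.1 on log2(FPKM + 0.1) and log2(FPKM + 1), other span thresholds, a replicate block and leaving out each library. Chi-square per degree of freedom between libraries of 1 group was 8.71 to 53.9, so none was a copy. Totals of 16725665 to 18523666 reads limit the precision of the rarest genes.

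Spans and promoters came from RefSeq GRCm38.p6 and exons from GENCODE vM21. The length divisor is reads over FPKM, scaled to the library median. The members and lists were chosen with earlier results of these data known. Named besides the listed genes were the 5 largest called rises and falls among other genes of at least 300 kb with 1 CPM or more in the higher group, up to 4 called elongation genes and up to 3 called neighbours in each direction, and coding genes nested in the listed genes, which were chosen later. Part of what the rule named is not reported here.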

Additional observations from a re-analysis of the deposited data

How the results depend on the processing

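Over 13 alternatives, the 33 long genes with at least 10 reads in every library gave 429 values. Of these 391 kept their side of the threshold, 34 lost the call in 7 genes (Auts2, Dlg2, Sox5, Zbtb20, Diaph2, Tcf4 and Dmd) and 4 gained it in 2 (Magi2 and Nbea). No called value changed sign, and Foxp1, not called in any, turned positive with library size only (0.06) and with limma on log2(FPKM + 0.1) and log2(FPKM + 1) (0.19 and 0.14). Calls of these 33 ranged from 21 to 25 lower and 1 to 3 higher. The medians that follow for long genes are over all 38, -0.73 as analysed, and so include the 5 that entered through controls. With library size only, the median of all genes was 0.14, of long genes -0.60, of other genes of at least 300 kb -0.31 and of neighbours 0.0019, with 1 elongation gene lower and all genes split 4632 higher to 2281 lower. With limma on log2(FPKM + 0.1), other long genes had a median of -0.28 and neighbours 0.012, with 26 elongation genes higher and 1 lower and all genes 4482 higher to 2286 lower. With limma on log2(FPKM + 1) the medians were -0.39 for long genes, -0.13 for other long genes and 0.0041 for neighbours, with 26 elongation genes higher and 1 lower. No filter gave other long genes a median of -0.53 and 1 elongation gene lower, and DESeq2 also gave 1. A span of at least 200 kb gave 88 higher and 271 lower other genes with a median of -0.29, and at least 500 kb gave 9 and 45. The cause was not tested, apart from the smaller and larger gene sets of the span thresholds.

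Leaving out each library gave 22 to 25 of the 33 genes lower and 1 to 3 higher, with a median of -0.72 to -0.62. Over all 38 it gave 27 to 30 lower, against 30 as analysed, and a median of -0.83 to -0.71, and 0 to 4 elongation genes were lower. Same-numbered samples showed no clear shared deviation (correlations 0.03, -0.14 and -0.13). With 3 samples per group this cannot exclude a pairing, and the labels state none. With a replicate block 23 of the 33 genes were lower and 2 higher, with 1 elongation gene lower, and Dlg2, Auts2 and Sox5 lost their calls (adjusted p = 0.0510, 0.0617 and 0.0621). Depth limits Fhit, Immp2l, Ctnna2 and Lsamp, which had 0 to 3 reads in each cisplatin library.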
